A study of Homo sapiens with 24 samples.

Results

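The 36 genes described here are neighbours of ERBB2 on chromosome 17, at 17q12 to 17q21, in BT-474 cells. ERBB2 encodes HER2, a receptor tyrosine kinase, and BT-474 is an established human breast cancer line with extra copies of the ERBB2 region and with an estrogen receptor. The genes were taken from a list by position. In RefSeq gene order 20 of them lie between ERBB2 and the centromere, from SRCIN1 to PGAP3, and 16 lie on the telomere side, from MIEN1 to WIPF2. Another 8 protein-coding genes of the same stretch were not on the list. Of the 36 genes, 33 had a probe set (a set of short probes for 1 transcript) annotated to that gene alone, and 31 of these passed a filter on dim signals and were tested among 14335 genes. ZPBP2, a sperm protein gene, averaged a log2 level of 3.42 over the 24 arrays and MED24, a Mediator subunit gene, averaged 4.60, and both stayed below the filter of a log2 level of 5 in 3 arrays. A further probe set of MED24 was shared with another gene and was not read. GSDMA, a gasdermin gene of skin, had no probe set. The probe sets of NR1D1 were shared with THRA, the gene beside it, that of CASC3 was shared with a microRNA gene, and neither is reported.

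The study had 24 arrays in 8 groups of 3. Both arms received an siRNA, directed at HER2 in one and a control sequence in the other. Within each arm, estrogen (10 nM) or its vehicle, 0.001% ethanol, was given and RNA was taken 24 h or 4 h later. HER2 siRNA and control siRNA thus each had 4 conditions: estrogen 24 h, vehicle 24 h, estrogen 4 h and vehicle 4 h. All came from 1 cell line. Nothing in the labels tells whether the 3 replicates of a group are cultures of their own, and a p-value here therefore reflects array-to-array spread, which may be technical. For HER2 siRNA estrogen 4 h replicate 3 the source name says 24 h, while its title, description and characteristics say 4 h, and it was kept at 4 h. In RNA from whole cultures, fewer cells that make a transcript and less of it per cell cannot be told apart.

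Amplification of this region copies a block of chromosome and not ERBB2 alone, so the genes nearest to it, from STARD3 to GRB7, are often present in extra copies and strongly transcribed in HER2-positive tumours. An siRNA acts on transcripts that match its sequence and leaves the gene copies in place. The neighbours have unrelated roles: adaptors of receptor signalling, subunits of Mediator, of Polycomb complexes and of the proteasome, nuclear receptors, and enzymes of lipids and membranes. The comparisons below ask how the neighbours' transcripts stood when ERBB2 transcripts were depleted, and whether estrogen moved them.

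ERBB2, the targeted gene, had log2 levels between 11.86 and 12.69 on the 12 HER2 siRNA arrays (median 12.33), against 13.39 to 13.94 on the 12 control siRNA arrays (median 13.60). The groups did not overlap. Averaged over the 4 conditions the level with HER2 siRNA was 39.6% of that with control siRNA (95% confidence interval 36.5 to 42.9%, adjusted p = 1.11e-14, limma). Array medians were 5.28 to 5.36, arrays of 1 group correlated at 0.991 to 0.997, and the number of arrays limits the precision. All 9 luminal epithelial markers passed the filter, among them KRT8 and ESR1. Of the markers of other cell types, 3 of 6 fibroblast, 3 of 6 leukocyte and 2 of 4 endothelial genes passed it. The log2 of the summed signal was taken over each full list, genes below the filter included. On HER2 siRNA and control siRNA arrays it was 9.64 to 10.17 and 9.28 to 10.07 for fibroblast genes. It was 7.47 to 7.84 and 7.39 to 7.61 for leukocyte genes, and 7.52 to 8.06 and 7.80 to 8.25 for endothelial genes. The part of these genes in the results was not tested. PTPRC (3.47 to 4.04 on HER2 siRNA arrays, 3.73 to 4.06 on control siRNA arrays) and COL3A1 (3.61 to 4.02 and 3.62 to 4.05) were among the dim ones. COL1A1, of the fibroblast list, was far brighter, at 9.38 to 10.02 on HER2 siRNA arrays and 8.93 to 9.9 on control siRNA arrays. LYZ, of the leukocyte list, reached 4.51 to 6.32 on HER2 siRNA arrays, against 3.52 to 4.88 on control siRNA arrays, and rose by 1.08 ± 0.17.

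With HER2 siRNA the neighbours differed from control siRNA in both directions. Averaged over the 4 conditions, 26 of the 31 tested neighbours passed the limma threshold (adjusted p under 0.05), 14 of them higher and 12 lower. Over all genes tested, 59.2% passed in this comparison, 30.1% higher and 29.1% lower. Among genes with a mean log2 level of 10 or more, 15 of 18 neighbours passed beside 76.1% of all such genes, and among dimmer genes 11 of 13 passed beside 56.5%. The median log2 difference was 0.00 for the neighbours and 0.00 for all genes, and the median size of the difference was 0.29 for the neighbours and 0.17 for all genes. By position, 4 of the 6 genes from STARD3 to GRB7 rose and 1 fell, 5 of the 16 farther towards the centromere rose and 7 fell, and of the 9 tested genes farther towards the telomere 5 rose and 4 fell. On each side of ERBB2 some genes rose and others fell.

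**Figure D1:**
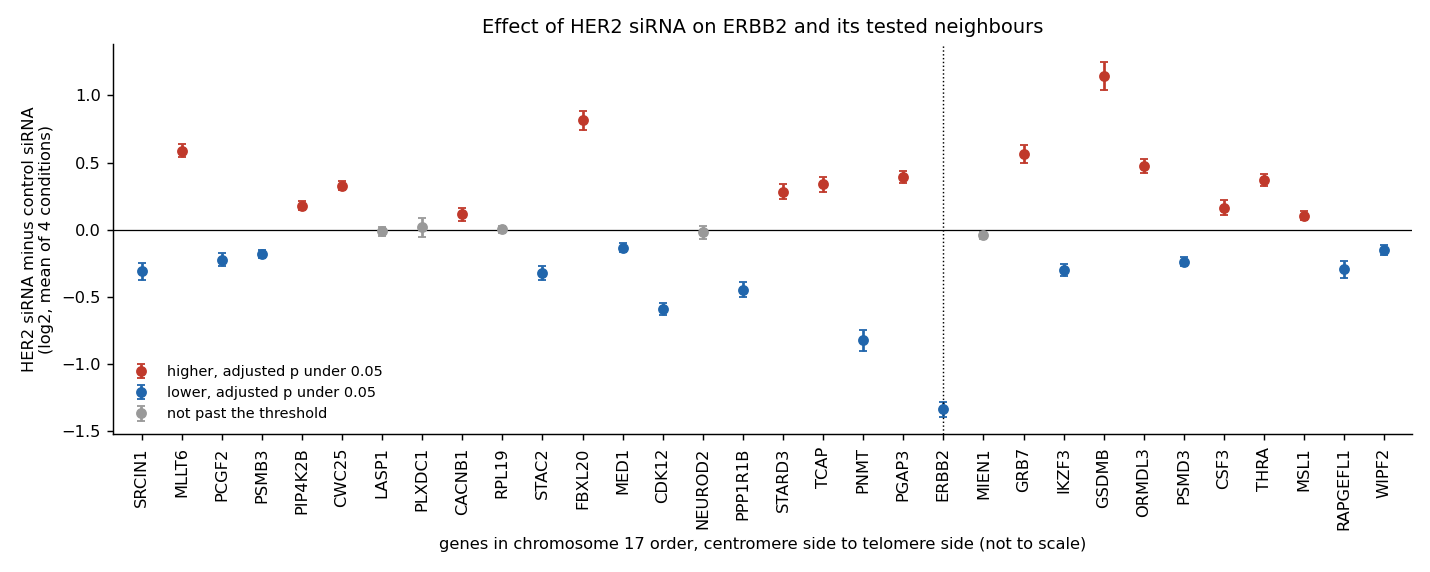
Log2 difference of HER2 siRNA minus control siRNA (mean of 4 conditions, vertical axis) for ERBB2 and its 31 tested neighbours in chromosome order (horizontal axis, not to scale). Points are the fitted differences and bars 1 standard error; red passed the threshold as higher, blue as lower, grey did not pass. ERBB2 is lowest at -1.34, its neighbours PGAP3 (0.39) and GRB7 (0.56) lie above 0, MIEN1 (-0.04) lies close to 0, and GSDMB (1.14) is highest.

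Of the genes on either side of ERBB2, PGAP3 rose and MIEN1 did not pass. PGAP3, which remodels the lipid of glycosylphosphatidylinositol anchors, starts next to ERBB2 and runs the other way. Its log2 levels were 11.80 to 12.24 with HER2 siRNA (median 12.10), against 11.54 to 11.86 with control siRNA (median 11.70). The ranges overlapped at their edge, and the difference of 0.39 ± 0.04 passed (adjusted p = 7.25e-08, limma). A second probe set of PGAP3 differed by 0.43 ± 0.04. The 250 bases before 1 RefSeq start of each gene are given in the GRCh38.p14 sequence. These starts lie on facing ends of 1 short stretch, and whether this layout has a part in the changes was not tested. Only the first listed start of each gene was used, and which start the measured transcripts came from was not tested. Capitals mark the 36 bases that lie between both starts, read on the strand of each gene. ERBB2 is on the plus strand (chr17:39687844-39688093, 65.6% G and C) and PGAP3 on the minus strand (chr17:39688058-39688307, 50.4% G and C).
ERBB2: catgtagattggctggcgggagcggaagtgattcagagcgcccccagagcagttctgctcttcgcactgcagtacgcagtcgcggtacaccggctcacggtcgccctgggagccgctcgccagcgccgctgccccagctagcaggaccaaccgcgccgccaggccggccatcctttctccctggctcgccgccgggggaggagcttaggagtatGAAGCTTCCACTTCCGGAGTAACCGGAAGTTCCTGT
PGAP3: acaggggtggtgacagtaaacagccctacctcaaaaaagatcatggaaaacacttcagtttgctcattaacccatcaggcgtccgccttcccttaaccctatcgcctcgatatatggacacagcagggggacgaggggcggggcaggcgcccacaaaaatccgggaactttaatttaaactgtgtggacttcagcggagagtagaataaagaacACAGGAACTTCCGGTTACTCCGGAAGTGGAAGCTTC
RefSeq promoter windows of 300 bases were found for 25 of the 36 neighbours, 29 windows in all, and searched on both strands. GTAAACA, a core motif of forkhead box O factors, was in 1 of the 29 windows, 235 bases before the start of PGAP3, and in 3.42% of 35116 windows of all genes. The E-box CACGTG was in 4 (GSDMA, MIEN1, PSMB3 and RPL19) and in 7.26% of all windows. The E2F motif TTTCGCGC was in 1 (ZPBP2) and in 0.515% of all, while TTTGGCGC (0.652% of all) and the full palindromic estrogen response element (0.057% of all) were in none of the 29. No gene had a match to more than 1 of these motifs, and the matches describe the windows alone.

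MIEN1, on the other side of ERBB2, encodes a membrane-anchored protein of cell migration. Its log2 levels were 13.25 to 13.48 with HER2 siRNA (median 13.40), against 13.32 to 13.51 with control siRNA (median 13.45). The ranges overlapped, and the difference of -0.04 ± 0.03 did not pass (adjusted p = 0.215, limma). Its 95% confidence interval, from -0.10 to 0.02, corresponds to 93.5 to 101% of the control level, so a fall like that of ERBB2 lay outside it. GRB7, the next gene, encodes an SH2 adaptor that binds HER2. GRB7 had levels of 10.38 to 11.10 with HER2 siRNA (median 10.81), against 9.78 to 10.51 with control siRNA (median 10.14). Its ranges overlapped at their edge, and it rose by 0.56 ± 0.07 (adjusted p = 2.89e-07, limma).

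Among the other 3 genes nearest ERBB2, PNMT fell and STARD3 and TCAP rose. PNMT, the enzyme that makes adrenaline from noradrenaline, had levels of 7.92 to 8.75 with HER2 siRNA (median 8.07), against 8.76 to 9.34 with control siRNA (median 8.92). The groups did not overlap, and the HER2 siRNA level was 56.5% of the control level (difference -0.82 ± 0.08, adjusted p = 5.32e-09, limma). The highest HER2 siRNA array of PNMT was replicate 1 with estrogen at 4 h, at 8.75, and the control array of the same number and condition was also the highest of its arm, at 9.34. STARD3, a cholesterol-binding protein of late endosomes, rose by 0.28 ± 0.06, and TCAP, a titin-binding protein of muscle, rose by 0.34 ± 0.05. The call for STARD3 ended with GAPDH signal at the 3' end minus the 5' end, array by array, as a covariate (0.17, adjusted p = 0.144, limma).

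**Figure D2:**
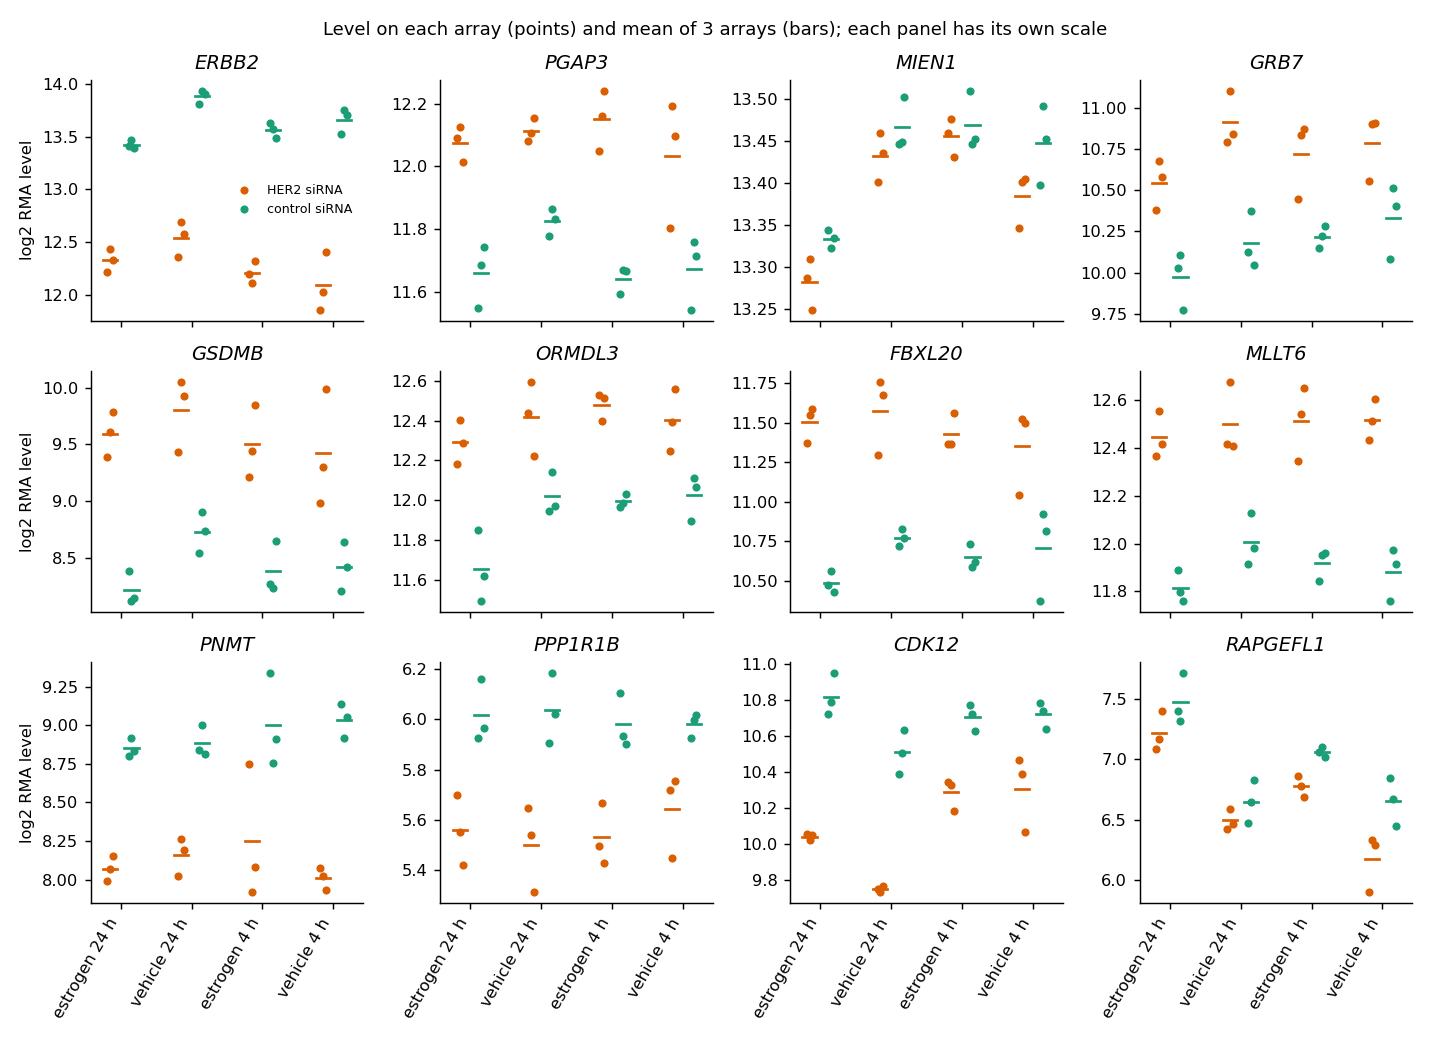
Log2 RMA level (vertical axis, a scale of its own in each panel) on each of the 24 arrays for ERBB2 and 11 neighbours, by condition (horizontal axis). Points are arrays, orange for HER2 siRNA and green for control siRNA, and bars are means of 3 arrays. MIEN1 levels intermingle between the siRNAs, GSDMB, FBXL20, MLLT6 and ORMDL3 lie higher with HER2 siRNA on every array, PNMT and PPP1R1B lie lower on every array, and RAPGEFL1 is higher with estrogen than with vehicle.

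Between HER2 siRNA and control siRNA arrays, 12 against 12, 7 of the 31 neighbours did not overlap. MLLT6, CWC25, FBXL20, GSDMB and ORMDL3 were above, and PPP1R1B and PNMT were below. Of all genes tested, 15.8% did not overlap (7.16% above and 8.69% below).

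A mixed list of lipid, membrane, enzyme and other genes had 8 tested members, with no single role in common. STARD3, PGAP3, GSDMB, ORMDL3, CSF3 and TCAP (6 genes) were higher, PNMT was lower and MIEN1 did not pass, beside 30.1% higher and 29.1% lower of all genes. GSDMB, a gasdermin whose cut form makes membrane pores, had the largest averaged difference among the 31. Its levels were 9.39, 9.61 and 9.79 with HER2 siRNA and estrogen at 24 h, against 8.38, 8.12 and 8.14 with control siRNA and estrogen at 24 h. With vehicle at 24 h they were 9.43, 10.05 and 9.92 with HER2 siRNA, against 8.54, 8.90 and 8.74 with control siRNA. With estrogen at 4 h they were 9.22, 9.44 and 9.85 with HER2 siRNA, against 8.27, 8.24 and 8.65 with control siRNA. In each condition the lowest HER2 siRNA array lay above the highest control siRNA array, and with vehicle at 4 h too (8.98 and 8.64). Over the 4 conditions GSDMB with HER2 siRNA was at 221% of the control level (difference 1.14 ± 0.11, 95% confidence interval 190 to 258%, adjusted p = 4.25e-09, limma). Its other probe sets rose as well, by 1.22 ± 0.11 and 0.39 ± 0.04.

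ORMDL3, an endoplasmic reticulum protein that restrains serine palmitoyltransferase and so sphingolipid synthesis, lies beside GSDMB. ORMDL3 had levels of 12.18 to 12.59 with HER2 siRNA (median 12.40), against 11.49 to 12.14 with control siRNA (median 11.97). It rose by 0.48 ± 0.05 (adjusted p = 6.51e-08, limma), and its second probe set by 0.45 ± 0.05. CSF3, the granulocyte colony-stimulating factor, was a dim gene here (6.21 to 6.65 with HER2 siRNA, 6.04 to 6.45 with control siRNA) and rose by 0.16 ± 0.06 (adjusted p = 0.0173, limma), a call that ended with a further quantile normalisation (adjusted p = 0.0502) and with the GAPDH covariate (adjusted p = 0.0645).

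Genes of transcription and chromatin went both ways, with 3 of 8 tested members higher and 4 lower, beside 30.1% and 29.1% of all genes. MLLT6, a chromatin-associated fusion partner of KMT2A in leukaemia, had levels of 12.35 to 12.68 with HER2 siRNA (median 12.47), against 11.76 to 12.13 with control siRNA (median 11.92), and rose by 0.59 ± 0.05 (adjusted p = 3.03e-10, limma). THRA, the thyroid hormone receptor alpha, rose by 0.37 ± 0.04 (adjusted p = 2.65e-07, limma). Its probe sets did not all move: of 4 that passed the filter 2 rose and 2 did not pass, and THRA overlaps NR1D1 on the other strand. MSL1, the scaffold of a histone acetyltransferase complex, rose by 0.11 ± 0.03 on its brightest probe set, but a second one fell by 0.55 ± 0.05, and the mean of its probe sets was lower by 0.16 (adjusted p = 8.2e-05, limma).

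PCGF2, a Polycomb RING finger subunit, fell by 0.22 ± 0.05, and IKZF3, a zinc-finger regulator of lymphocytes, fell by 0.30 ± 0.04. All 3 IKZF3 probe sets fell, by 0.30 to 0.88. MED1, the Mediator subunit that contacts nuclear receptors, fell by 0.13 ± 0.03 (adjusted p = 0.00113, limma). MED1 levels were 12.80 to 12.99 with HER2 siRNA, against 12.98 to 13.13 with control siRNA, and the call ended with a further quantile normalisation (-0.08, adjusted p = 0.0530). NEUROD2, a neuronal transcription factor, was near the dim end (median 5.29 with HER2 siRNA, 5.31 with control siRNA) and differed by -0.02 ± 0.05 (adjusted p = 0.784, limma).

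CDK12, the kinase that with cyclin K phosphorylates the tail of RNA polymerase II during elongation, gave opposite readings on different probe sets. On the brightest, 225694_at, CDK12 levels were 9.73 to 10.46 with HER2 siRNA (median 10.06), against 10.39 to 10.95 with control siRNA (median 10.72). The difference was -0.59 ± 0.05 (adjusted p = 2.12e-10, limma). Of its 8 probe sets, 5 fell and 3 rose. Those that fell were 225694_at, 225690_at (-0.49 ± 0.04), 225691_at (-0.63 ± 0.07), 225697_at (-0.28 ± 0.07) and 219226_at (-0.40 ± 0.08). Those that rose were 213557_at (0.65 ± 0.09), 1556654_at (0.67 ± 0.10) and 1556655_s_at (0.45 ± 0.10). On 225690_at and 213557_at the HER2 siRNA and control siRNA arrays did not overlap, while on each of the other CDK12 probe sets they did. 225690_at lay at 9.81 to 10.36 with HER2 siRNA and 10.46 to 10.79 with control siRNA, and 213557_at at 10.21 to 10.93 with HER2 siRNA and 9.61 to 10.14 with control siRNA. With the mean of the 8 probe sets the difference was -0.08 and did not pass (adjusted p = 0.0562, limma). Which transcript or part of the gene each probe set reads was not tested.

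**Figure D3:**
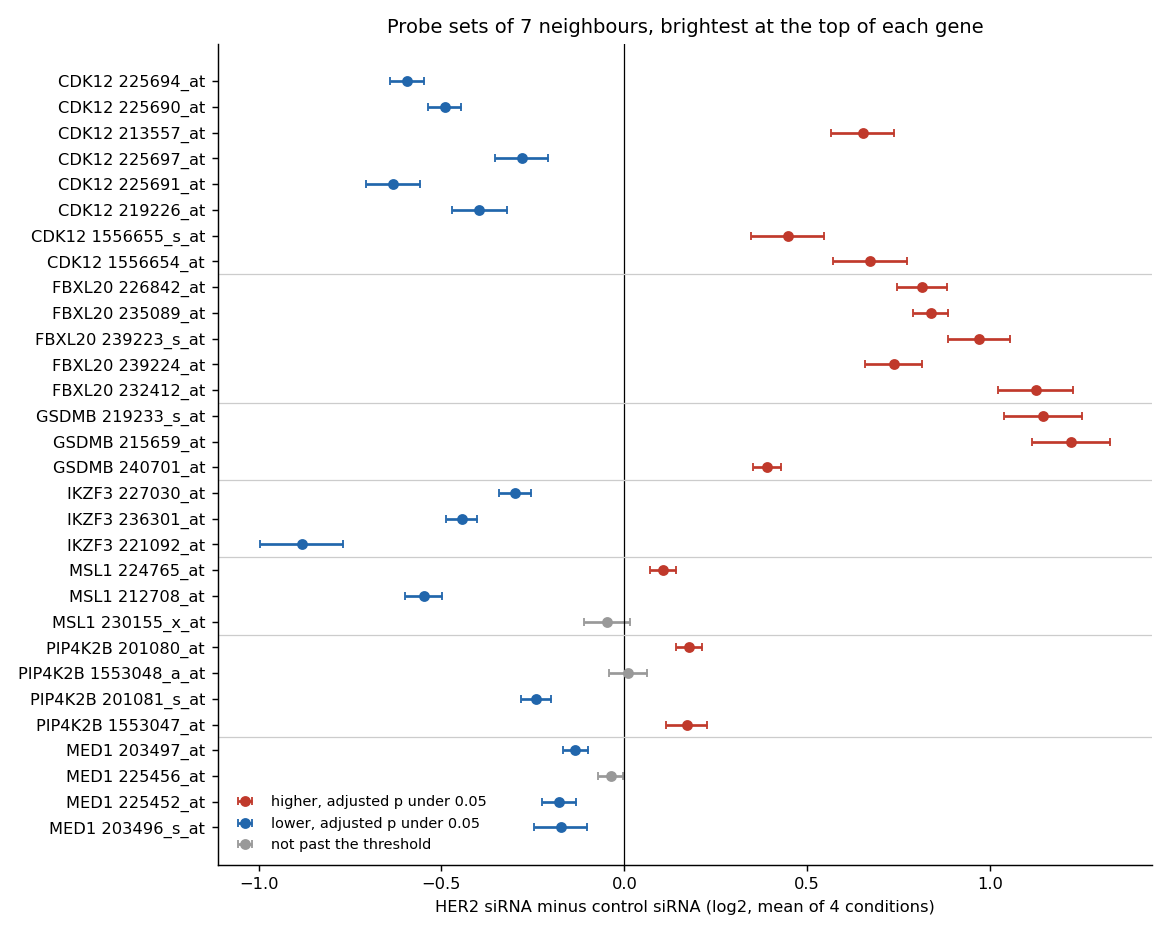
Log2 difference of HER2 siRNA minus control siRNA (mean of 4 conditions, horizontal axis) for every probe set that passed the filter of 7 neighbours, with the brightest probe set of each gene on top. Points are fitted differences and bars 1 standard error; red passed as higher, blue as lower, grey did not pass. FBXL20 and GSDMB probe sets all lie above 0 and IKZF3 ones below, while those of CDK12, MSL1 and PIP4K2B lie on both sides.

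Such disagreement was seen in 3 of the 16 neighbours with several probe sets above the filter (CDK12, MSL1 and PIP4K2B). In 6 of the 16 every probe set passed in 1 direction (CWC25, FBXL20, GSDMB, IKZF3, ORMDL3 and PGAP3). In the other 7 some passed in 1 direction and the rest did not pass (SRCIN1, MLLT6, PCGF2, CACNB1, MED1, THRA and WIPF2). How often each pattern occurs among all genes with several probe sets was not counted. PIP4K2B, a phosphatidylinositol phosphate kinase, rose by 0.18 ± 0.03 on its brightest probe set. Another fell by 0.24 ± 0.04, and with the mean of its probe sets the call ended (0.03, adjusted p = 0.373, limma).

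Of the genes of protein and RNA turnover, 2 of 5 tested rose and 2 fell, beside 30.1% and 29.1% of all genes. FBXL20, an F-box substrate receptor of ubiquitin ligases, had levels of 11.04 to 11.76 with HER2 siRNA (median 11.51), against 10.37 to 10.93 with control siRNA (median 10.67). The groups did not overlap, the HER2 siRNA level was 176% of the control level (difference 0.81 ± 0.07, adjusted p = 9.63e-10, limma), and all 5 FBXL20 probe sets rose, by 0.74 to 1.12. CWC25, a splicing factor, rose by 0.33 ± 0.04. PSMB3 and PSMD3, subunits of the proteasome core and of its regulatory cap, fell by 0.18 ± 0.03 and 0.24 ± 0.03. RPL19, a ribosomal protein gene often used as a reference, had levels of 14.83 to 14.91 with HER2 siRNA, against 14.83 to 14.91 with control siRNA, and a difference of 0.00 (95% confidence interval -0.05 to 0.06).

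Among 10 signalling and cytoskeletal genes, 3 rose (GRB7, PIP4K2B and CACNB1) and 5 fell, beside 30.1% and 29.1% of all genes. PPP1R1B, an inhibitor of a protein phosphatase known from dopamine signalling, was dim, with levels of 5.31 to 5.76 with HER2 siRNA (median 5.55), against 5.90 to 6.18 with control siRNA (median 5.98). The groups did not overlap, and it fell by 0.45 ± 0.05 (adjusted p = 2.18e-07, limma). SRCIN1, an adaptor that inhibits SRC, fell by 0.31 ± 0.06, STAC2, a calcium channel adaptor, by 0.32 ± 0.05, RAPGEFL1, related to exchange factors of RAP proteins, by 0.29 ± 0.06, and WIPF2, a WASP-binding protein, by 0.15 ± 0.04. Of the 3 SRCIN1 probe sets 1 fell and 2 did not pass, with differences from -0.31 to -0.01. The fall of WIPF2 ended as a call with the mean of its probe sets (-0.06, adjusted p = 0.204, limma). CACNB1, a calcium channel subunit, rose by 0.12 ± 0.05 (adjusted p = 0.0423, limma), and its call was lost in 20 of 31 alternatives, leaving out single arrays among them. LASP1, an actin-binding protein, and PLXDC1, a cell surface protein, did not pass, with 95% confidence intervals from -0.08 to 0.05 and from -0.13 to 0.16.

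The siRNA effect was next read in each condition on its own. At 24 h under estrogen 18 neighbours passed by limma, 11 higher and 7 lower, against 42.0% of all genes (21.5% higher and 20.5% lower). At 24 h under vehicle 20 passed, 11 higher and 9 lower, against 41.5% (19.7% higher and 21.8% lower). At 4 h under estrogen 14 passed, 9 higher and 5 lower, against 34.1% (16.8% higher and 17.3% lower). At 4 h under vehicle 18 passed, 8 higher and 10 lower, against 34.2% (16.5% higher and 17.8% lower). MLLT6, CWC25, FBXL20, PGAP3, GRB7, GSDMB, ORMDL3 and THRA rose in all 4 conditions, which 10.6% of all genes did. CDK12, PPP1R1B, PNMT and PSMD3 fell in all 4, which 12.2% of all genes did. With the GAPDH covariate (the 3' minus 5' signal, which differed between the siRNAs) GRB7 and THRA each lost the call in 3 of the 4 conditions, with adjusted p by limma from 0.0991 to 0.162 for GRB7 and from 0.0579 to 0.103 for THRA. CWC25 lost it at 4 h under estrogen (0.0545), PGAP3 at 24 h under vehicle (0.0566) and PPP1R1B at 4 h under vehicle (0.0634), and the other 7 of these 12 genes kept it in all 4. With only the groups compared PSMD3 lost the call at 24 h under estrogen (adjusted p = 0.0596, limma) and vehicle (0.0593) and at 4 h under estrogen (0.0751). In that setting CWC25 (0.0892) and PGAP3 (0.0511) lost it at 4 h under vehicle. With the mean of probe sets THRA lost it at 4 h under estrogen (0.198) and vehicle (0.281). CDK12 differed there by 0.0883 and 0.084 and did not pass. Another 11 passed in 1 to 3 conditions, 8 in none, and 0 neighbours passed in opposite directions in different conditions. The shares of all genes for these last counts were not computed, so they describe the neighbours alone.

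**Figure D4:**
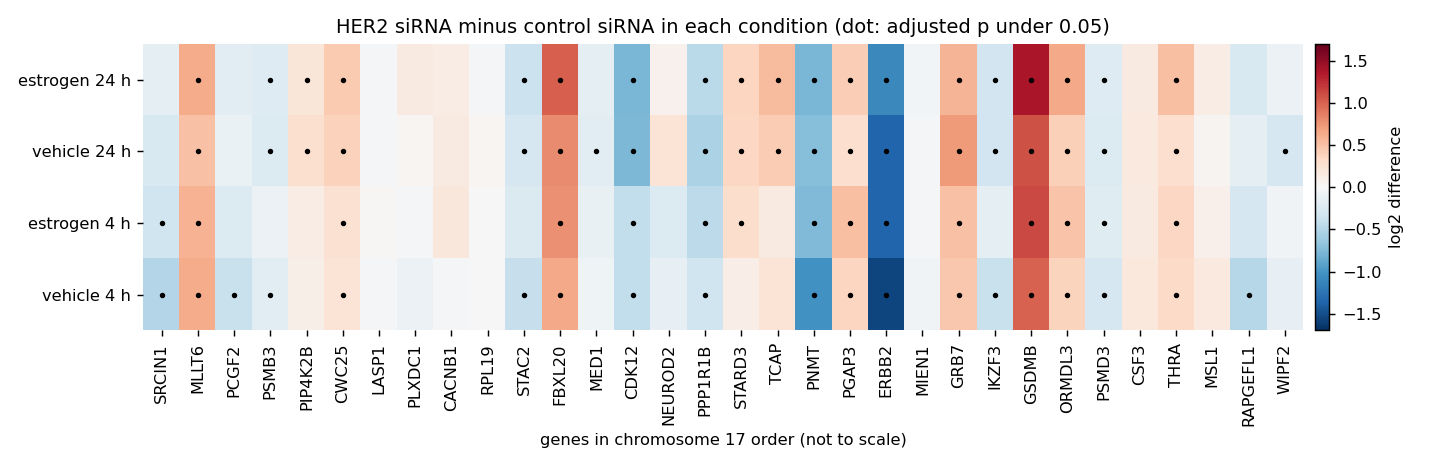
Log2 difference of HER2 siRNA minus control siRNA (colour, red higher and blue lower) for ERBB2 and its 31 tested neighbours in chromosome order (columns, not to scale) in each condition (rows, estrogen and vehicle at 24 h, then at 4 h); dots mark an adjusted p under 0.05 by limma. MLLT6, FBXL20, GRB7 and GSDMB are red and PNMT, CDK12 and ERBB2 blue in all 4 rows, and LASP1, RPL19 and MIEN1 are pale throughout.

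CDK12, on its brightest probe set, was the 1 of 31 neighbours that passed the test for a difference in siRNA effect between times when each gene was read from its brightest probe set. With every probe set tested, a dimmer one of PIP4K2B, the one that fell above, passed as well (-0.33 ± 0.08, adjusted p = 0.0303, limma). At 24 h CDK12 levels were 10.05, 10.02 and 10.05 with HER2 siRNA and estrogen, against 10.72, 10.79 and 10.95 with control siRNA and estrogen. With vehicle at 24 h they were 9.75, 9.73 and 9.76 with HER2 siRNA, against 10.39, 10.50 and 10.63 with control siRNA. At 4 h they were 10.35, 10.33 and 10.18 with HER2 siRNA and estrogen, against 10.77, 10.72 and 10.63 with control siRNA and estrogen. The HER2 siRNA arrays at 24 h were the lowest, and those with vehicle at 4 h lay at 10.07 to 10.46, against 10.64 to 10.78 with control siRNA. The siRNA effect at 24 h was -0.78 under estrogen and -0.76 under vehicle. At 4 h it was -0.42 under estrogen and -0.41 under vehicle. Averaged over estrogen and vehicle, the effect at 24 h minus that at 4 h was -0.35 ± 0.09 (adjusted p = 0.0401, limma), and 1 of 31 neighbours passed beside 2.95% of all genes (1.73% higher and 1.22% lower). Of the 8 CDK12 probe sets 7 were below 0 in this contrast. For 1556655_s_at and 1556654_at, which rose with HER2 siRNA, this was a smaller rise at 24 h than at 4 h. Only 1 of the 8, the brightest, passed. The call ended without a filter (adjusted p = 0.0577) and when any of 17 of the 24 arrays was left out in turn, with adjusted p up to 0.0758.

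Few neighbours passed for estrogen against vehicle. At 24 h 1 of 31 passed with HER2 siRNA, against 6.17% of all genes (4.28% higher and 1.9% lower). With the replicate number as a block 3 of 31 passed, and over all genes 1251 in place of 885. With control siRNA at 24 h 4 of 31 passed, 2 higher and 2 lower, against 13.5% (7.01% higher and 6.52% lower). At 4 h 1 passed with HER2 siRNA, against 0.698% (0.663% higher and 0.0349% lower). With control siRNA at 4 h 0 passed by limma, against 0.342% (0.335% higher and 0.00698% lower). There 1 of 31 had an unadjusted p under 0.05, beside 3.92% of all genes. RAPGEFL1, near the telomere end of the stretch, was the gene that passed in 3 of the 4 contrasts. RAPGEFL1 levels at 24 h with HER2 siRNA were 7.08, 7.17 and 7.39 with estrogen, against 6.42, 6.59 and 6.46 with vehicle. At 24 h with control siRNA they were 7.39, 7.31 and 7.71 with estrogen, against 6.48, 6.64 and 6.83 with vehicle. The groups did not overlap in either pair. RAPGEFL1 rose by 0.72 ± 0.13 with HER2 siRNA at 24 h (adjusted p = 0.000685, limma) and by 0.82 ± 0.13 with control siRNA at 24 h (adjusted p = 0.000124, limma), and these calls held in all 15 alternatives run on each.

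At 4 h RAPGEFL1 levels with HER2 siRNA were 6.86, 6.78 and 6.69 with estrogen, against 5.90, 6.33 and 6.29 with vehicle. It rose there by 0.60 ± 0.13 (adjusted p = 0.0197, limma). Without the lowest vehicle array, replicate 1, the difference was 0.46 and did not pass (adjusted p = 0.162), and the call also ended without estrogen replicate 1 (adjusted p = 0.104) or replicate 2 (adjusted p = 0.0733). With control siRNA at 4 h the levels were 7.06, 7.10 and 7.02 with estrogen, against 6.85, 6.67 and 6.45 with vehicle, and the difference of 0.40 ± 0.13 did not pass (adjusted p = 0.447, limma).

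The other neighbours that passed with estrogen at 24 h and control siRNA were SRCIN1, ORMDL3 and CDK12. SRCIN1 had levels of 10.26, 9.84 and 10.08 with estrogen, against 10.58, 10.52 and 10.47 with vehicle, and fell by 0.47 ± 0.13 (adjusted p = 0.0165, limma). ORMDL3 had levels of 11.85, 11.49 and 11.62 with estrogen, against 11.95, 12.14 and 11.97 with vehicle, and fell by 0.37 ± 0.10 (adjusted p = 0.0227, limma). CDK12 rose by 0.31 ± 0.09 on its brightest probe set (adjusted p = 0.0265, limma), and on the mean of its probe sets the difference was -0.0006. With the mean of probe sets the calls for SRCIN1 (-0.25, adjusted p = 0.0515, limma) and ORMDL3 (-0.23, adjusted p = 0.108, limma) ended as well. With only the groups compared those for ORMDL3 (adjusted p = 0.0673, limma) and CDK12 (0.0811) ended. The ORMDL3 call also ended with the GAPDH covariate (0.0634), and that of CDK12 without the 3 arrays numbered apart (0.107). None of these 3 calls held without control siRNA estrogen 24 h replicate 2 (adjusted p = 0.102 for SRCIN1, 0.120 for ORMDL3 and 0.0518 for CDK12). The call also ended without estrogen replicate 3 for ORMDL3 (0.0778) and CDK12 (0.143), without vehicle replicate 1 for SRCIN1 (0.0610) and CDK12 (0.130), and without vehicle replicate 2 for ORMDL3 (0.109) and CDK12 (0.0712), as adjusted p by limma with control siRNA. ERBB2 itself fell by 0.46 ± 0.11 in the same comparison (adjusted p = 0.00770, limma). GSDMB differed by -0.51 ± 0.21 and did not pass (adjusted p = 0.120, limma). It passed with the mean of its probe sets (-0.44, adjusted p = 0.0388) and with only the groups compared (adjusted p = 0.0250), and 1 of its dimmer probe sets passed alone (-0.30 ± 0.08, adjusted p = 0.0170).

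**Figure D5:**
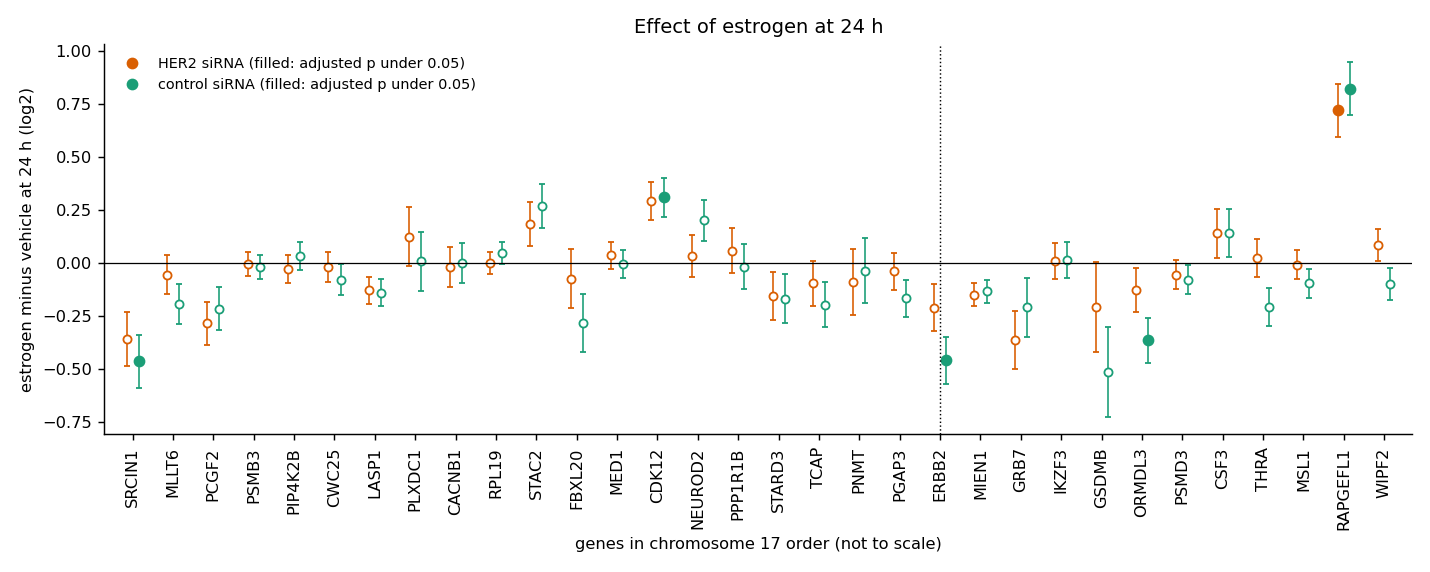
Log2 difference of estrogen minus vehicle at 24 h (vertical axis) with HER2 siRNA (orange) and control siRNA (green) for ERBB2 and its 31 tested neighbours in chromosome order (horizontal axis, not to scale). Points are fitted differences, bars 1 standard error, and filled points passed at an adjusted p under 0.05 by limma. RAPGEFL1 stands highest with both siRNAs (0.72 and 0.82), and most other genes lie within 0.40 of 0.

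No neighbour passed limma's test for a difference in the estrogen effect between HER2 siRNA and control siRNA. At 24 h 0 of 31 passed, against 0.0628% of all genes (0.0488% higher and 0.014% lower), and at 4 h 0 of 31, against 0.0% of all genes. At either time 0 of 31 had an unadjusted p under 0.05, beside 6.04% of all genes at 24 h and 2.81% at 4 h. For RAPGEFL1 the estrogen effect with HER2 siRNA minus that with control siRNA at 24 h was -0.10 (95% confidence interval -0.47 to 0.27). For ORMDL3 it was 0.24 (-0.07 to 0.55) and for ERBB2 0.25 (-0.08 to 0.58). Between 24 h and 4 h with control siRNA and vehicle, 0 of 31 neighbours passed by limma, against 0.781% of all genes (0.363% higher and 0.419% lower). There 3 of 31 had an unadjusted p under 0.05, beside 14.4% of all genes. With every probe set tested, the same dimmer PIP4K2B probe set was higher at 24 h (0.43 ± 0.08, adjusted p = 0.0186, limma).

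Complexes and families to which the neighbours belong were read from lists of their other members, whose counts stand beside 59.2% of all genes that passed (30.1% higher and 29.1% lower). Of 26 tested proteasome subunits other than PSMB3 and PSMD3, 24 fell with HER2 siRNA, 0 rose, and the median difference was -0.33, with PSMD14 (-0.76 ± 0.04) and PSMD12 (-0.51 ± 0.03), subunits of the cap, among the falls. Of 28 Mediator subunits other than MED1, 12 rose and 7 fell (median 0.04), with the kinase CDK8 (-0.92 ± 0.05) lower and MED28 (0.44 ± 0.03) higher. Of 8 relatives and partners of CDK12, 2 rose and 3 fell, among them CDK13 (0.49 ± 0.09), its closest relative, and CDK9 (-0.32 ± 0.05), another kinase of the polymerase tail. Of 6 genes of the ORMDL family and serine palmitoyltransferase, 2 rose and 3 fell. ORMDL1 (-0.39 ± 0.04) and ORMDL2 (-0.43 ± 0.06) fell where ORMDL3 rose. Of 9 genes of the GRB7 family and HER2 adaptors, 5 rose and 1 fell, with GRB14 (1.66 ± 0.15) and GRB10 (0.59 ± 0.07), both relatives of GRB7, among the rises. Of 14 circadian clock genes, the setting in which NR1D1 acts, 6 rose and 5 fell, led by DBP (1.60 ± 0.05) and CLOCK (-0.70 ± 0.04). Of 11 genes of the exon junction, MSL and Polycomb complexes, 2 rose and 6 fell, led by MAGOHB (-0.88 ± 0.07).

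Beyond the 36 genes, of 7 tested genes next on the telomere side of WIPF2, 3 fell with HER2 siRNA and 0 rose (29.1% and 30.1% of all genes), with the DNA topoisomerase TOP2A at -2.01 ± 0.07 and the replication licensing factor CDC6 at -2.11 ± 0.08. With estrogen at 24 h and control siRNA 4 of the 7 rose, beside 7.01% of all genes, among them RARA (1.28 ± 0.10), the retinoic acid receptor alpha, and IGFBP4 (1.43 ± 0.11), an insulin-like growth factor binding protein. Of 10 genes next on the centromere side of SRCIN1, 4 rose with HER2 siRNA and 3 fell. In other regions known to be amplified in BT-474, 6 of 14 genes at 17q23 rose and 5 fell, and 9 of 16 at 20q13 rose and 1 fell, beside 30.1% higher and 29.1% lower of all genes.

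RNA labelling from the 3' end makes signals sensitive to how intact the transcripts are. The GAPDH 3' minus 5' log2 difference was 0.44 ± 0.06 on HER2 siRNA arrays and 0.31 ± 0.07 on control siRNA arrays (SD, n = 12 each), a two-sided permutation p of 0.00014 with 100000 resamples. With this difference as a covariate 22 of the 31 neighbours passed for the averaged siRNA effect, 10 higher and 12 lower, all of them among the 26. Over all genes 6601 of 14335 then passed in place of 8490. With estrogen at 4 h 9 neighbours passed in place of 14, and 3774 genes in place of 4886. Its part in the disagreement between probe sets was not tested.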

How the data were processed

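Total RNA of 24 BT-474 samples was labelled from the 3' end and hybridised to Affymetrix HG-U133 Plus 2.0 arrays. The deposited values are log2 levels per probe set, made by the authors with RMA per the submitters' processing notes; its version is not given in the sources used here. Depth in arrays is their number. Of 54675 probe sets, 41091 had 1 gene symbol in the platform annotation, updated through Entrez identifiers. Per gene the probe set with the highest mean over all arrays was used, and genes with a log2 level of at least 5 in at least 3 arrays were tested (14335). A model with 1 mean per group over all 24 arrays was fitted with limma 3.58.1 in R 4.3.3 (4.92 prior and 20.9 total degrees of freedom). Benjamini-Hochberg adjustment ran over all tested genes in each of 13 comparisons, with a threshold of 0.05. Errors after ± are standard errors unless called SD. Percentages of the control level are 2 to the power of the log2 difference. Figures and tables used Python 3.11.15 and scipy 1.17.1. The code was tested on simulated data.

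The genes, companion lists, tests and alternatives were chosen with earlier results of these data known. Genes named are ERBB2, all neighbours, every CDK12 probe set and up to 3 genes per companion list with the smallest adjusted p, fewer being printed. Alternatives were other filters, the replicate number as a block, leaving out 3 arrays whose running number in the labels stands apart, the mean of probe sets or every probe set alone, only the groups compared, a further quantile normalisation, and each array left out in turn. The GAPDH covariate was added after seeing the data. Equal replicate numbers were checked as pairs: deviations from group means correlated over 0.1 in all 3 pairs in 4 of 9 comparisons of single groups (HER2 siRNA against control siRNA with vehicle at 24 h and 4 h and with estrogen at 4 h, and estrogen against vehicle with HER2 siRNA at 24 h), with medians of 0.205 for equal and -0.107 for different numbers.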

Additional observations from a re-analysis of the deposited data

Results flagged for a closer look

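The HER2 siRNA effect on CDK12 passed the test for a difference between times. It was larger in size at 24 h than at 4 h, by -0.35 on the log2 scale (95% confidence interval -0.54 to -0.16, adjusted p = 0.0401, limma), on the brightest of its 8 probe sets. The CDK12 control siRNA arrays with vehicle differed by -0.21 ± 0.09 between 24 h and 4 h, which did not pass (adjusted p = 0.294, limma). On 213557_at, a CDK12 probe set that rose with HER2 siRNA, the time contrast was 0.12 ± 0.17, and on the 4 others that fell it ranged from -0.36 to -0.26. On the 2 others that rose, 1556655_s_at and 1556654_at, it was -0.67 and -0.51, a smaller rise at 24 h than at 4 h, and none of these 7 passed by limma with every probe set tested.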

How the results depend on the processing

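Of the 26 calls for the averaged siRNA effect, 18 kept direction and call in each alternative run, 31 or 32 per gene, and 25 kept both when single arrays were left out, the exception being CACNB1. Over all 13 comparisons 61 of 103 calls of neighbours kept both throughout. With the replicate block every call of a neighbour remained. It added 2 for estrogen with HER2 siRNA at 24 h (3 in all), where 1251 of all genes passed in place of 885. The siRNA counts became 19 (estrogen 24 h), 15 (estrogen 4 h) and 19 (vehicle 4 h). Over all genes these comparisons gave 6553, 5487 and 5479 calls, in place of 6019, 4886 and 4909. The block also added GSDMB for estrogen with control siRNA at 24 h (adjusted p = 0.0379, limma). In that comparison arrays of equal number correlated at 0.414, 0.057 and 0.411, so not all 3 pairs were over 0.1. The mean of probe sets and only the groups compared added GSDMB too. The count of 1 for estrogen with HER2 siRNA at 24 h was 2 with a filter of a log2 level of 7 (990 of all genes) and with the mean of probe sets (814 of all genes). With the GAPDH covariate the siRNA count with estrogen at 4 h was 9. The 4 calls of estrogen with control siRNA at 24 h became 1 to 4 when single arrays were left out, the lowest without estrogen replicate 2. The single call of estrogen with HER2 siRNA at 4 h (RAPGEFL1) became 0 to 1, and 0 without the 3 arrays numbered apart and with only the groups compared. The single call of the siRNA effect between times (CDK12) became 0 without a filter and 0 to 1 when single arrays were left out.

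With the mean of probe sets in place of the brightest, values turned for MSL1 (-0.16, averaged siRNA effect), PIP4K2B (-0.0228, siRNA, vehicle 24 h) and CDK12 (0.084, siRNA, vehicle 4 h; 0.0883, siRNA, estrogen 4 h; -0.0006, estrogen, control siRNA 24 h), whose probe sets differ in direction. The cause of the other changes was not tested. Over all genes, the block gave 76 calls in place of 49 for estrogen with control siRNA at 4 h, 153 in place of 100 with HER2 siRNA at 4 h, 34 in place of 9 for the estrogen difference at 24 h, 829 in place of 423 for the siRNA effect between times, and 448 in place of 112 between times with control siRNA and vehicle. Only the groups compared gave 28, 458, 4 and 43 calls in place of 100 and 885 (estrogen, HER2 siRNA, 4 h and 24 h), 9 (estrogen difference) and 112 (times). Without the 3 arrays numbered apart 1151 in place of 1939 (estrogen, control siRNA, 24 h) and 43 in place of 112 (times) passed, and a filter of 7 gave 187 for the times.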
